A study of Homo sapiens with 6 samples.

Results

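The cyclins, cyclin-dependent kinases (CDKs), CDK inhibitors, E2F factors and pocket proteins were followed in LA1-55n, a human neuroblastoma cell line, by microarray. Members were chosen by gene symbol: CDK followed by a number (without CDK5RAP), CDKN, cyclin symbols, E2F, and the pocket proteins RB1, RBL1 and RBL2. They came to 59 genes of 14779 measured under a gene name, and dim probe sets were kept, so all 59 were tested. The groups were LA1-55n cells with a tetracycline-inducible short hairpin against glycine decarboxylase (shGLDC99, 3 arrays) and LA1-55n cells with an inducible hairpin against GFP (shGFP, 3 arrays). Both received 0.5 µg/ml doxycycline for 7 days, so the drug is shared, and the arrays were Affymetrix Human Gene 2.0 ST. With 1 hairpin against GLDC, lowering of GLDC and any other effect of that hairpin cannot be told apart. Replicates are lettered a, b and c in each group, and the submitters call them independent without more detail. The p-values therefore measure the spread between these samples, which may be technical.

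Passage through the cell cycle is driven by CDKs that are active only when bound to a cyclin. D-type cyclins with CDK4 or CDK6, and then cyclin E with CDK2, phosphorylate the pocket proteins, which releases E2F factors to switch on the genes of DNA replication. Cyclin A carries cells through S phase and cyclin B with CDK1 into mitosis. Other CDKs of the family do not time the cycle but phosphorylate RNA polymerase II or act in postmitotic cells such as neurons. In neuroblastoma, cyclin D1 and CDK4 or CDK6 are known for high activity.

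Values are log2 intensities as deposited, and differences are shGLDC99 minus shGFP on that scale. The words rose, fell and changed are used only where the adjusted p of limma, a linear model with variances moderated over all genes, was under 0.05 after Benjamini-Hochberg adjustment over all 14779 genes. The hairpin's target, GLDC, stood at 5.98, 5.65 and 5.93 in shGLDC99 cells and at 7.85, 7.90 and 7.81 in shGFP cells, so all shGLDC99 arrays lay below all shGFP arrays (limma adjusted p = 0.00101). Array medians lay between 4.28 and 4.33, and the median difference over all genes was -0.01. Of the adrenergic neuroblastoma markers 12 of 14 were measured, 10 of them above the median gene level of 5.09 in both groups. Their summed linear intensity was 1970 to 2080 in shGLDC99 cells and 2260 to 2450 in shGFP cells. Of the 12 markers, 6 were higher and 6 lower in shGLDC99 cells (median difference 0.02), GATA2, GATA3, ISL1 and TBX2 fell and CHGB rose. Of 25 listed markers of fibroblasts, Schwann cells, leukocytes and endothelium 11 were measured, all but THY1 below the median gene level, and 1, the fibroblast marker LUM, rose. The summed intensity of the 3 measured fibroblast markers was 72.1 to 79.9 in shGLDC99 cells and 64.6 to 68.9 in shGFP cells; their part in the results below was not tested.

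Of the 59 members, 12 fell, 2 rose and 45 did not pass the threshold. The 14 changed members are 23.7% of the 59, where 8.52% of all genes changed. Over all genes 4.8% fell and 3.72% rose, against 20.3% and 3.39% of the members. The 12 that fell were CCND1, CDK6, CDK2, CCNA2, CCNF, E2F2, E2F7, RBL1, CDK14, CDK8, CCNK and CDK2AP2, and the 2 that rose were CCND2 and CCNL2. All shGLDC99 arrays lay below all shGFP arrays for 23 members (39%, where all genes gave 16.3%) and above them for 9, where all genes gave 14.5%, a share close to that of the members. Most members are bright: 49 lay above the median gene level in both groups, as did 7206 of all genes. Among genes that bright, 26.5% of members and 13.9% of all genes changed, 24.5% and 8.2% fell, and 44.9% and 25.4% lay wholly below. The median difference was -0.08 over the members and -0.01 over all genes. In a bulk culture, fewer cells in a phase of the cycle and less transcript per cell cannot be told apart. When each of the 6 arrays was omitted in turn, 5 to 7 members fell and 1, CCND2, rose.

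**Figure D1:**
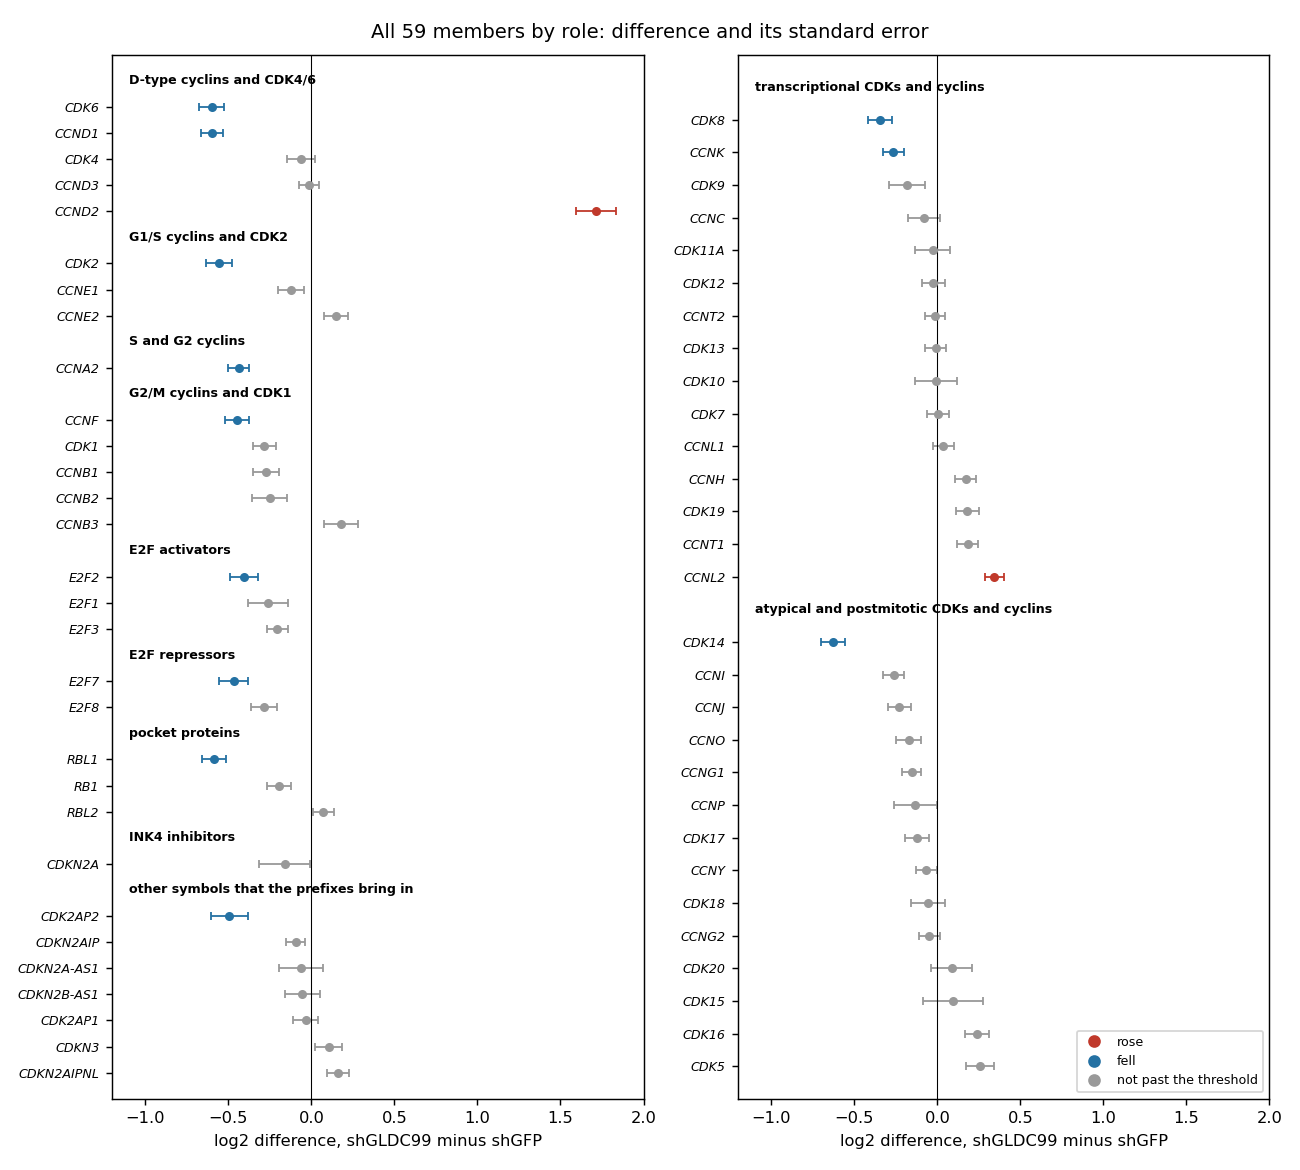
Log2 difference (shGLDC99 minus shGFP, x axis) of each of the 59 members, grouped by role, with its moderated standard error; red marks members that rose, blue those that fell and grey those not past the threshold. Among the D-type cyclins with CDK4 and CDK6, CCND2 stands at 1.71 while CCND1 and CDK6 stand near -0.60. All 5 E2F factors lie below 0, and the transcriptional members lie on both sides of 0 (median -0.01).

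The members fell into parts by role. Of the 22 that act directly in the cycle (D, E, A, B and F cyclins with CDK1, CDK2, CDK4 and CDK6, E2F factors and pocket proteins), 8 fell and 1 rose, with a median of -0.27 and 18 of 22 lower. Of the 29 transcriptional, atypical and postmitotic members, 3 fell and 1 rose, with a median of -0.03 and 19 of 29 lower. These shares, 36.4% and 10.3% falling, describe the roles and were not tested against each other. Over all genes 4.8% fell and 51.6% were lower. Among genes above the median gene level in both groups, as 25 of the 29 were, 8.2% fell, a share near the 10.3%.

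Of the D-type cyclins, which link growth signals to the cycle, CCND2 rose, CCND1 fell and CCND3 did not pass the threshold. CCND2 stood at 6.04, 6.11 and 5.91 in shGLDC99 cells and at 4.54, 4.27 and 4.11 in shGFP cells, so the groups lay far apart. CCND2 rose by 1.71 ± 0.121 (SE), or 3.28-fold (limma adjusted p = 0.00179, n = 3 each). Its shGFP level lay below the median gene level and is not shown to exceed background, so the size of this rise is uncertain. A second probe set of CCND2 read 4.12, 4.15 and 3.85 in shGLDC99 cells and 3.60, 3.76 and 3.75 in shGFP cells, also without overlap but by only 0.34. With both probe sets averaged, the rise of CCND2 was 1.02.

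CCND1 encodes cyclin D1. It stood at 7.86, 7.74 and 7.80 in shGLDC99 cells and at 8.34, 8.41 and 8.44 in shGFP cells, with no overlap. CCND1 fell by 0.60 ± 0.0665 (SE), or 1.51-fold lower (limma adjusted p = 0.00647). CCND3, the third D-type cyclin, differed by -0.02 (limma adjusted p = 0.911) at a mean of 4.80 in shGLDC99 cells and 4.82 in shGFP cells, below the median gene level.

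Of the kinases that D-type cyclins activate, CDK6 fell and CDK4 did not pass the threshold. CDK6 stood at 6.91, 6.69 and 6.79 in shGLDC99 cells and at 7.37, 7.38 and 7.45 in shGFP cells, all lower under shGLDC99. It fell by 0.60 ± 0.0773 (SE; limma adjusted p = 0.00885). CDK4 stood at 8.78, 8.55 and 8.59 in shGLDC99 cells and at 8.64, 8.69 and 8.77 in shGFP cells, and these ranges overlapped (limma adjusted p = 0.708). Within each array, CDK4 minus CDK6 was 1.84 ± 0.0384 in shGLDC99 cells and 1.31 ± 0.0260 in shGFP cells (SD, n = 3 each).

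**Figure D2:**
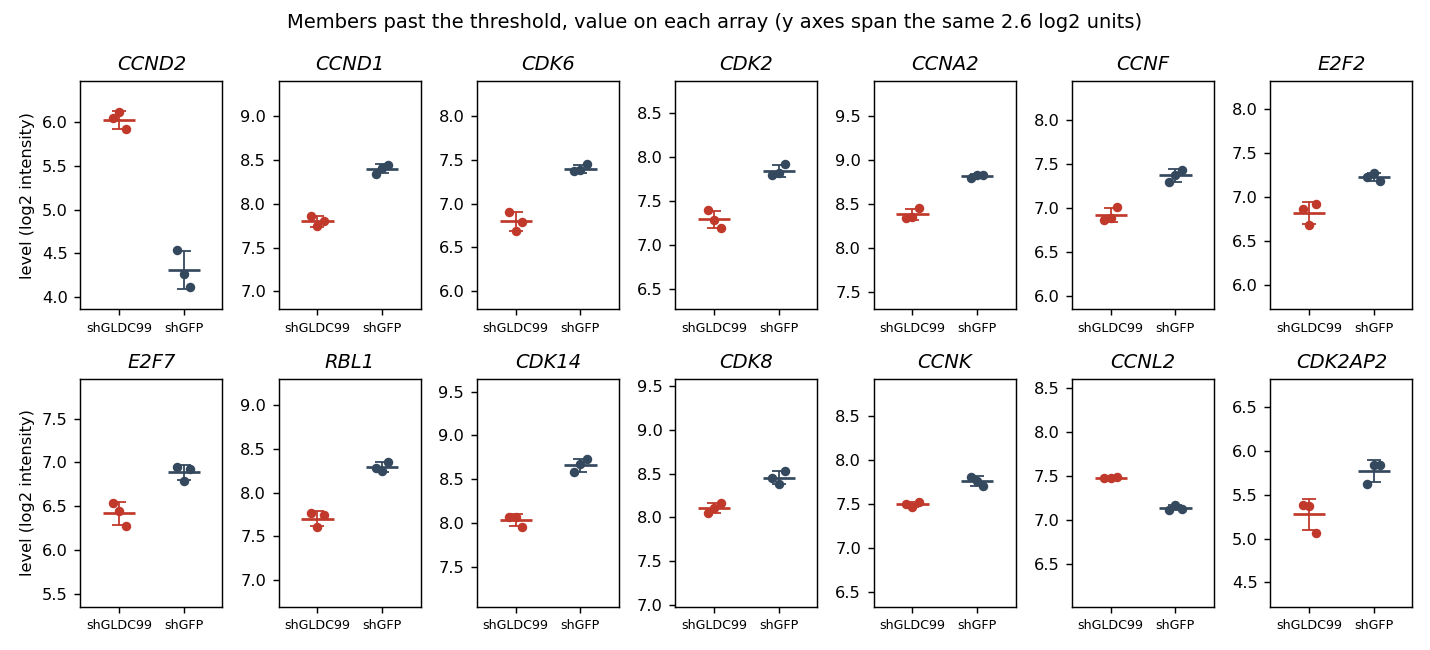
Log2 intensity on each array (y axis) for the 14 members past the threshold, with shGLDC99 (red) left of shGFP (dark blue); points are arrays, horizontal lines means and bars SD (n = 3). No group overlaps the other in any panel; CCND2 and CCNL2 are higher in shGLDC99 cells and the other 12 are lower.

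CDK2, the partner of cyclins E and A, fell, while its E-type cyclins did not pass the threshold. CDK2 stood at 7.40, 7.28 and 7.20 in shGLDC99 cells and at 7.80, 7.82 and 7.92 in shGFP cells, a fall of 0.55 ± 0.0778 (SE; limma adjusted p = 0.0107). CCNE1 had a mean of 7.18 ± 0.110 in shGLDC99 cells and 7.30 ± 0.0539 in shGFP cells (SD, n = 3 each), and its arrays overlapped (limma adjusted p = 0.405). CCNE2 stood at 7.87, 7.77 and 7.89 in shGLDC99 cells and at 7.76, 7.72 and 7.59 in shGFP cells. The shGLDC99 arrays of CCNE2 were thus all above the shGFP arrays, by a difference of 0.15 that did not pass the threshold (limma adjusted p = 0.281). Among the 22 members that act in the cycle, CCND2 and CCNE2 were the pair whose shGLDC99 arrays all lay above the shGFP arrays.

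The cyclins of S phase, G2 and mitosis were mostly lower. CCNA2, cyclin A, stood at 8.34, 8.35 and 8.46 in shGLDC99 cells and at 8.80, 8.83 and 8.83 in shGFP cells, with a fall of 0.44 ± 0.0637 (SE; limma adjusted p = 0.0116). CCNF, a cyclin that serves as the substrate receptor of a ubiquitin ligase rather than as a CDK partner, stood at 6.87, 6.89 and 7.01 in shGLDC99 cells and at 7.30, 7.38 and 7.44 in shGFP cells. CCNF fell by 0.45 ± 0.0734 (SE; limma adjusted p = 0.0171). For both genes the groups did not overlap. CCNA2 was no longer past the threshold without shGFP array c (limma adjusted p = 0.0512), nor was CCNF without shGFP array b or c or shGLDC99 array a or b (0.0622 to 0.0644).

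The mitotic kinase and its B-type cyclins were lower without passing the threshold. CDK1 stood at 8.18, 8.28 and 8.35 in shGLDC99 cells and at 8.53, 8.56 and 8.58 in shGFP cells (difference -0.28, limma adjusted p = 0.0525). CCNB1 averaged 7.61 ± 0.0536 in shGLDC99 cells and 7.88 ± 0.110 in shGFP cells (SD, n = 3 each; difference -0.27, limma adjusted p = 0.0820). CCNB2 differed by -0.25 (limma adjusted p = 0.212), with shGLDC99 array b at 6.22 and the other shGLDC99 arrays at 6.56 and 6.59, against 6.67 to 6.73 in shGFP cells. For all 3 genes every shGLDC99 array lay below every shGFP array. CDK1 and CCNB1 passed the threshold as lower once the dimmest 40% of genes were dropped or the prior variance followed intensity; CDK1 also passed with array quality weights. CCNB3, a cyclin known from meiosis, had means of 2.63 in shGLDC99 cells and 2.45 in shGFP cells, below the median gene level, and did not pass (limma adjusted p = 0.341).

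All 5 measured E2F factors were lower in shGLDC99 cells, and 2 fell (40%, where 4.8% of all genes fell). Among genes above the median gene level in both groups, as all 5 were, 8.2% fell. E2F2, an activator, stood at 6.86, 6.68 and 6.92 in shGLDC99 cells and at 7.23, 7.27 and 7.18 in shGFP cells. It fell by 0.41 ± 0.0823 (SE; limma adjusted p = 0.0317), and the groups did not overlap. E2F3 differed by -0.20 (limma adjusted p = 0.101) without overlap. E2F1 differed by -0.26 (limma adjusted p = 0.244), and shGLDC99 array a, at 6.97, lay above shGFP array a, at 6.85. The other E2F1 values were 6.69 and 6.70 in shGLDC99 cells and 7.08 and 7.21 in shGFP cells.

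E2F7 and E2F8 are repressors that E2F activators themselves induce. E2F7 stood at 6.54, 6.45 and 6.28 in shGLDC99 cells and at 6.95, 6.79 and 6.92 in shGFP cells, a fall of 0.47 ± 0.0896 (SE; limma adjusted p = 0.0269). E2F8 was 7.63 ± 0.0709 in shGLDC99 cells and 7.92 ± 0.0994 in shGFP cells (SD, n = 3 each), a difference of -0.28 that did not pass (limma adjusted p = 0.0751). Activators and repressors of the E2F family were thus both lower, and neither arm had a member above 0. When each of the 6 arrays was omitted in turn, the fall of E2F2 was lost every time and that of E2F7 every time but without shGLDC99 array a. Once the dimmest 40% of genes were dropped, or the prior variance followed intensity, 4 of the 5 fell. E2F4, E2F5 and E2F6 were not analysed here.

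Of the 3 pocket proteins, which bind and restrain E2F factors, RBL1 fell, and RB1 and RBL2 did not pass the threshold. RBL1 (p107), known as an E2F target as well as an E2F partner, stood at 7.76, 7.60 and 7.75 in shGLDC99 cells and at 8.28, 8.24 and 8.35 in shGFP cells. It fell by 0.59 ± 0.0729 (SE; limma adjusted p = 0.00814). RB1, the retinoblastoma protein, stood at 8.09, 8.07 and 8.26 in shGLDC99 cells and at 8.33, 8.30 and 8.37 in shGFP cells, lower on every array but not past the threshold (difference -0.19, limma adjusted p = 0.167). RBL2 (p130), the pocket protein known to predominate in quiescent cells, stood at 7.52, 7.45 and 7.56 in shGLDC99 cells and at 7.41, 7.48 and 7.43 in shGFP cells. These RBL2 values overlapped (limma adjusted p = 0.550). Within arrays, RBL2 minus RBL1 was -0.19 ± 0.0456 in shGLDC99 cells and -0.85 ± 0.0793 in shGFP cells (SD, n = 3 each).

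Promoters of E2F-regulated genes often hold the E2F motif, and those of mitotic genes the cell cycle homology region (CHR) with CCAAT boxes bound by NF-Y. RefSeq promoter windows (GRCh38.p14, from 250 bases before to 50 bases after each start) were matched by symbol for 53 of 59 members; CCND1, CCND2, CCNE2, CDK2, E2F8 and CDKN2A-AS1 were not matched. The E2F motif was searched as TTTCCCGC, TTTGGCGC, TTTCGCGC or TTTGCCGC, the CHR as TTTGAA and the NF-Y motif as CCAAT, on both strands. Matches that share bases were each counted. The 120 bases before the start are printed 5′ to 3′ on the gene's own strand, with E2F, CHR and, for CCNF and CCNB2, CCAAT matches in capitals. RBL1 and E2F2 are shown as the members that fell and hold an E2F match, E2F1 as the member with a match on each strand, and CCNF and CCNB2 as G2/M cyclins with a CHR match. Their positions are chr20:37095998-37096117 (minus strand) for RBL1, chr1:23531234-23531353 (minus) for E2F2, chr20:33686386-33686505 (minus) for E2F1, chr16:2429327-2429446 (plus) for CCNF and chr15:59105026-59105145 (plus) for CCNB2.
RBL1: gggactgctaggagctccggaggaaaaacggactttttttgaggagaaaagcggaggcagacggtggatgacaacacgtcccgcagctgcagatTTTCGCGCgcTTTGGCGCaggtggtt
E2F2: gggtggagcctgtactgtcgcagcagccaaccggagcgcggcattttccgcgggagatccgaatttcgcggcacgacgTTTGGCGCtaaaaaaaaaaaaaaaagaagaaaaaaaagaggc
E2F1: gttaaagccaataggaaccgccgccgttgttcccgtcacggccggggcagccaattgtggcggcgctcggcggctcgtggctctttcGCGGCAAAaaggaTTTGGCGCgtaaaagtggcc
CCNF: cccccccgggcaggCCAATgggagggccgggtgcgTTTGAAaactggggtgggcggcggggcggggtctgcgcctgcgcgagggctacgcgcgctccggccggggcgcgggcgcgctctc
CCNB2: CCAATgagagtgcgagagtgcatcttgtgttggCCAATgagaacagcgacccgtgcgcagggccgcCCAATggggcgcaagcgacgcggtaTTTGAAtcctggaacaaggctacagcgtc

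An E2F match was found for 9 of 53 members (17%) and for 3.99% of the 27305 genes in the promoter table. All 3 E2F activators had one, as did RBL1, which has 2 within 26 bases of its start, and CDK1. By role, 5 of 17 matched members that act in the cycle (29.4%) held an E2F match, against 3 of 29 transcriptional, atypical and postmitotic members (10.3%). The CHR letters occurred in 5 of those 17 (29.4%), in 4 of those 29 (13.8%) and in 18.2% of all genes. CCAAT occurred in 10 of 17 (58.8%), in 11 of 29 (37.9%) and in 39.7% of all genes. Among the 10 matched members that fell, 2 (E2F2 and RBL1) held an E2F match (20%, close to the 17% of the 53). The CHR letters occurred in 1 of those 10 (10%) and CCAAT in 5 (50%), against 18.9% and 43.4% of the 53. A match describes the letters of the window only and is not a measured binding site.

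Of the CDK inhibitors, CDKN2A, which encodes the INK4 protein p16 and ARF, was the 1 inhibitor gene analysed. It stood at 2.81, 2.91 and 2.99 in shGLDC99 cells and at 3.36, 3.08 and 2.75 in shGFP cells. Both groups lay below the median gene level and overlapped, and a difference was not detected (limma adjusted p = 0.587). The shGFP arrays had an SD of 0.307, and this level is not shown to exceed background. The antisense transcripts CDKN2A-AS1 and CDKN2B-AS1 had means of 3.36 and 2.08 in shGLDC99 cells and 3.42 and 2.14 in shGFP cells and did not pass. The inhibitors CDKN1A, CDKN1B, CDKN1C, CDKN2B, CDKN2C and CDKN2D were not analysed here, so the CIP/KIP family had 0 analysed genes.

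Several symbols enter by their prefix without encoding a cyclin, CDK or inhibitor. CDK2AP2, a relative of the CDK2-associated protein CDK2AP1, stood at 5.38, 5.37 and 5.07 in shGLDC99 cells and at 5.63, 5.84 and 5.84 in shGFP cells, a fall of 0.49 ± 0.112 (SE; limma adjusted p = 0.0441). Leaving out any 1 of the 6 arrays ended that call. CDK2AP1 differed by -0.03. CDKN3, a phosphatase that acts on CDKs and is known to peak in mitosis, differed by 0.11 (limma adjusted p = 0.501). CDKN2AIP and CDKN2AIPNL differed by -0.09 and 0.16, neither past the threshold.

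Among the 15 transcriptional CDKs and cyclins, 2 fell and 1 rose, and the median difference was -0.01. The falls are 13.3% of the 15, where 4.8% of all genes and 8.2% of genes above the median gene level in both groups fell. CDK8, a kinase of the Mediator complex, stood at 8.05, 8.10 and 8.17 in shGLDC99 cells and at 8.45, 8.38 and 8.53 in shGFP cells, a fall of 0.35 ± 0.0713 (SE; limma adjusted p = 0.0335). CDK19, its paralog in the same complex, stood at 7.94, 7.80 and 7.95 in shGLDC99 cells and at 7.72, 7.71 and 7.72 in shGFP cells, higher on all arrays but not past the threshold (difference 0.18, limma adjusted p = 0.164). The 2 kinases thus differed in sign, and within arrays CDK19 minus CDK8 was -0.21 ± 0.0978 in shGLDC99 cells and -0.74 ± 0.0750 in shGFP cells (SD, n = 3 each). Their shared cyclin, CCNC, overlapped between groups (difference -0.08, limma adjusted p = 0.677).

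CCNL2, a cyclin of the CDK11 kinases involved in splicing, stood at 7.48, 7.47 and 7.49 in shGLDC99 cells and at 7.11, 7.17 and 7.13 in shGFP cells. It rose by 0.34 ± 0.0581 (SE; limma adjusted p = 0.0186), with little spread in either group. Its relative CCNL1 differed by 0.03. CCNK, the cyclin of CDK12 and CDK13, stood at 7.50, 7.47 and 7.52 in shGLDC99 cells and at 7.81, 7.76 and 7.70 in shGFP cells. It fell by 0.26 ± 0.0623 (SE; limma adjusted p = 0.0495), a call that quantile normalization again and centring on array medians each ended. Leaving out any 1 of the 6 arrays ended the calls of CDK8, CCNL2 and CCNK.

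The kinases paired with CCNK did not follow it. CDK12 and CDK13 differed by -0.02 and -0.01 (limma adjusted p = 0.874 and 0.941), and their arrays overlapped. In the CDK-activating kinase, CDK7 differed by 0.00 while its cyclin CCNH was higher on all shGLDC99 arrays without passing (difference 0.17, limma adjusted p = 0.168). In the elongation kinase P-TEFb, CDK9 differed by -0.18, CCNT1 by 0.18 and CCNT2 by -0.01, none past the threshold (limma adjusted p = 0.373, 0.146 and 0.925). CCNT1 was higher on all shGLDC99 arrays. CDK10 and CDK11A differed by -0.01 and -0.03. CDK11A has a near-identical neighbouring copy, CDK11B, so its probe set may read both.

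Among genes above the median gene level in both groups, as 11 of the 14 atypical and postmitotic members were, 8.2% fell. Of these 14 members 1 fell (7.14%, where 4.8% of all genes fell). This was CDK14, a kinase that works at the membrane with cyclin Y in Wnt signalling. It stood at 8.07, 8.07 and 7.96 in shGLDC99 cells and at 8.58, 8.67 and 8.73 in shGFP cells. CDK14 fell by 0.63 ± 0.0714 (SE), or 1.54-fold lower (limma adjusted p = 0.00681), the lowest difference of all 59 members. Its cyclin CCNY overlapped between groups (difference -0.07, limma adjusted p = 0.599).

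CDK5, the kinase of postmitotic neurons, and CDK16, a related kinase with roles in neurons and vesicle traffic, were higher on all shGLDC99 arrays. CDK5 stood at 7.98, 8.01 and 7.84 in shGLDC99 cells and at 7.70, 7.57 and 7.78 in shGFP cells (difference 0.25, limma adjusted p = 0.119). CDK16 differed by 0.24 (limma adjusted p = 0.0900). Neither passed the threshold. CCNI stood at 10.85, 10.89 and 10.94 in shGLDC99 cells and at 11.09, 11.18 and 11.19 in shGFP cells, lower without overlap but not past the threshold (difference -0.26, limma adjusted p = 0.0547). CCNJ (-0.23), CCNG1 (-0.16) and CCNO (-0.17) were also lower on every shGLDC99 array without passing. CCNG1, a p53 target, and CCNG2, known from cells that stop cycling, differed by -0.16 and -0.05. The other members, CDK15, CDK17, CDK18, CDK20 and CCNP, overlapped between groups, with differences from -0.13 to 0.09.

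**Figure D3:**
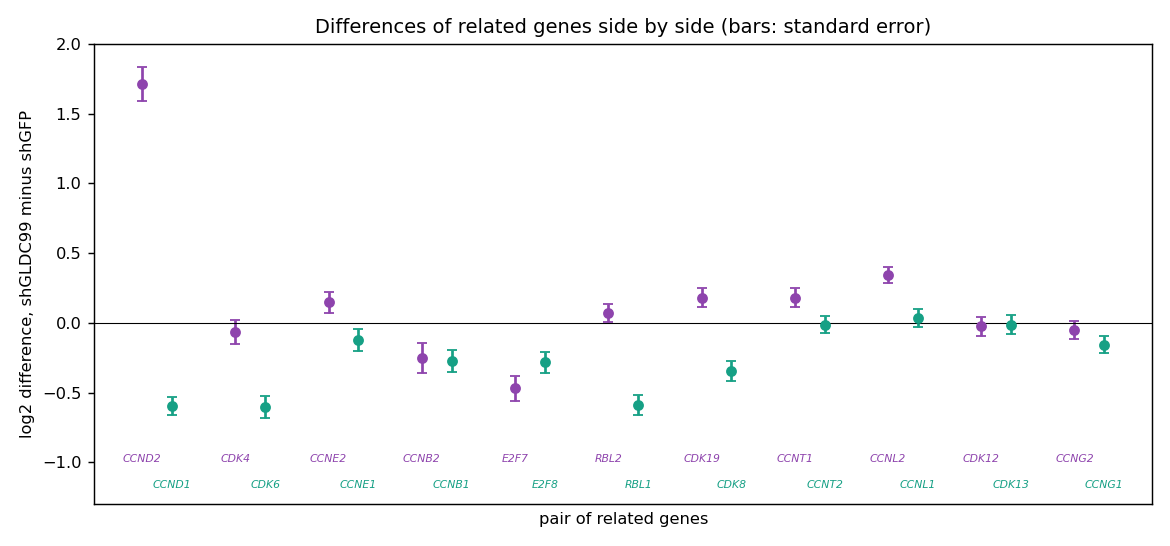
Log2 differences (shGLDC99 minus shGFP, y axis) with standard errors for 11 pairs of related genes, the first of each pair in purple and the second in green. CCND2 and CCND1, CCNE2 and CCNE1, RBL2 and RBL1, CDK19 and CDK8, and CCNT1 and CCNT2 lie on opposite sides of 0. Of these genes, CCND2, CCND1, RBL1 and CDK8 passed the threshold and the others did not. CCNB2 and CCNB1 lie together, as do CDK12 and CDK13.

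Related genes were set side by side in 11 pairs, chosen with their values known, so the within-array differences are given as descriptions. An exact permutation test of each pair gave p = 0.1 or 0.7. With 3 arrays per group that test cannot go below 0.1, so nothing is drawn from it. The widest shift was that of CCND2 minus CCND1, which stood at -1.78 ± 0.133 in shGLDC99 cells and -4.09 ± 0.268 in shGFP cells (SD, n = 3 each), although it carries the uncertainty of the CCND2 level. CCNE2 minus CCNE1 was 0.66 ± 0.139 in shGLDC99 cells and 0.39 ± 0.137 in shGFP cells. CCNB2 minus CCNB1, at -1.15 in shGLDC99 cells and -1.17 in shGFP cells, and CDK12 minus CDK13, at -2.07 in shGLDC99 cells and -2.05 in shGFP cells, shifted least. Levels of different probe sets are not comparable in themselves, so the shift of each difference between groups is what these values describe.

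Genes around the members gave the setting for these values. Of 11 listed genes that control CDK activity 9 were measured, of which 3 fell and 0 rose (median -0.27). The falls are 33.3% of the 9, where 4.8% of all genes fell. Among genes above the median gene level in both groups, as all 9 were, 8.2% fell. CABLES2, known as a CDK-binding adaptor, stood at 6.25, 5.97 and 6.07 in shGLDC99 cells and at 7.02, 7.22 and 7.25 in shGFP cells, a fall of 1.07 ± 0.103 (SE; limma adjusted p = 0.00424). CKS1B, the small subunit that docks CDKs to substrates, fell by 0.49 and WEE1, the kinase that inhibits CDK1 and CDK2, fell by 0.33. The opposing phosphatases CDC25A, CDC25B and CDC25C were lower on every shGLDC99 array, by -0.23, -0.27 and -0.31, without passing. CABLES1 differed by 0.00.

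Partners of E2F factors and pocket proteins were lower in all 11 measured genes of 12 listed, of which 2 fell (18.2%, median -0.11). For 6 of the 11 the groups overlapped. Over all genes 51.6% were lower and 4.8% fell. Among genes above the median gene level in both groups, as all 11 were, 52.4% were lower and 8.2% fell. LIN52, a subunit of the DREAM and MuvB complexes, fell by 0.63 and MYBL2, the B-Myb partner of MuvB, by 0.46 (limma adjusted p = 0.00885 and 0.0263). FOXM1, the mitotic transcription factor, differed by -0.25 (limma adjusted p = 0.0517), with 7.53, 7.57 and 7.49 in shGLDC99 cells and 7.77, 7.78 and 7.78 in shGFP cells. LIN9 differed by -0.29, and the E2F dimer partners TFDP1 and TFDP2 by -0.13 and -0.07, none past the threshold. Of 26 listed ubiquitin ligase genes 21 were measured and 2 fell, CDC20, the mitotic activator of the anaphase-promoting complex, by 0.41, and BTRC, which marks WEE1 and other substrates, by 0.31. The falls are 9.52% of these 21, close to the 8.2% of genes above the median gene level in both groups. The median of the 21 was -0.04, close to that of all genes.

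**Figure D4:**
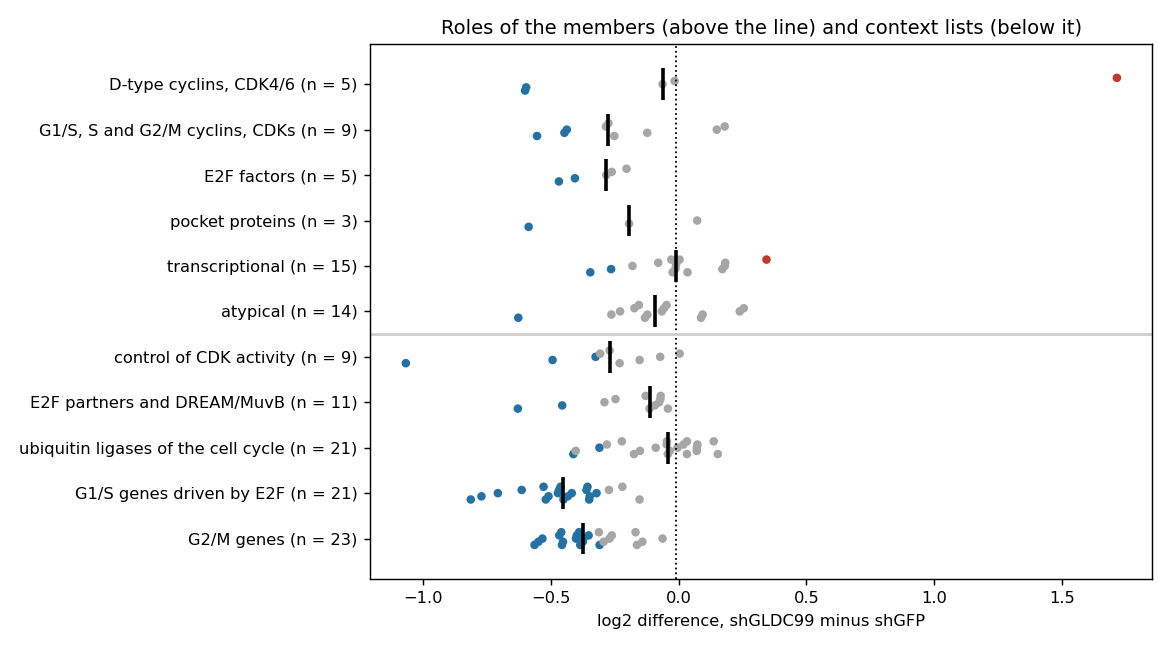
Log2 difference (shGLDC99 minus shGFP, x axis) of each gene by role of the members (above the grey line) and by context list (below it), with black bars at medians and a dotted line at the median of all genes, -0.01; red rose, blue fell, grey not past the threshold. The medians run from -0.45 for G1/S genes driven by E2F to -0.01 for the transcriptional members, with CCND2 at 1.71 far to the right.

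Most measured genes that E2F factors drive at the G1/S boundary fell. Of 31 listed 21 were measured, of which 18 fell (85.7%) and 0 rose, with a median of -0.45. All shGLDC99 arrays lay below all shGFP arrays in all 21. Over all genes 4.8% fell and 16.3% lay wholly below. Among genes above the median gene level in both groups, as all 21 were, these shares were 8.2% and 25.4%. UHRF1 and MCM5 had the smallest adjusted p, with falls of 0.81 and 0.77, followed by GINS2 (-0.71) and MCM6 (-0.61). Of 28 listed G2/M genes 23 were measured, of which 15 fell (65.2%) and 0 rose, with a median of -0.38. TOP2A fell by 0.46, KIF20A by 0.53, NEK2 by 0.45 and GTSE1 by 0.56. AURKA, the spindle pole kinase, differed by -0.06 and overlapped between groups. The medians of both lists lay below the -0.27 of the 22 cell cycle members, a description that was not tested.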

How the data were processed

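RNA from 6 samples (3 shGLDC99, 3 shGFP) was measured on 1-colour arrays. The authors deposited 1 value per probe set and array, read here as log2 intensity; the base is inferred, since a value of 13.28 occurs and natural logs of scanner intensities end at 11.09. Partek is named in the submitters' processing notes; how background, normalization and summarisation were handled, and the build, is not given in the sources used here. Values were used as deposited. Of 31135 probe sets 15098 carried 1 gene symbol in the platform annotation, 0 several, and 16037 are unnamed here; Entrez IDs tied all 15098 to RefSeq genes, and 0 symbols needed updating. For the 256 genes with several probe sets (among members, CCND2), the one with the highest mean over the 6 arrays was kept, giving 14779 genes.

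Groups were compared with limma 3.58.1 in R 4.3.3 (lmFit, eBayes, no covariates), adjusted over all 14779 genes, after testing on simulated data; data.table (version 1.17.8) read the files, and pandas 2.3.3, numpy 2.4.6 and matplotlib 3.10.9 handled sequences and plots. The number of arrays limits the precision. Members, roles and lists were chosen with earlier results of these data known. Named were GLDC, every changed member, every measured member of the cell cycle, E2F, pocket protein and INK4 roles, in the transcriptional and atypical roles the 2 with the smallest adjusted p and the 2 with the highest mean, and up to 4 genes per context list; genes named beyond this were chosen after their values were seen. CDKN2A-AS1 was placed in its role later. Alternatives were quantile normalization again, median centring, leaving out the dimmest 40% of genes, averaging probe sets, the replicate letter as a block, each array left out, an intensity trend, array weights, an adjusted p of 0.01 and all probe sets.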

Additional observations from a re-analysis of the deposited data

How the results depend on the processing

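Of the 28 members followed singly, all kept their direction under every alternative but CCND3, which was 0.0028 without shGLDC99 array c and reached -0.0446 without another array. RBL1, CCND1 and CCND2 stayed past 0.05 under every alternative run at that threshold, and at 0.01 too. Deviations of same-letter arrays correlated at -0.01, 0.02 and 0.00, so no shared deviation by letter was seen. These correlations cannot show whether same-letter samples were handled together. With the replicate block, 229 genes changed, 2 members fell (CCND1 and RBL1) and 1 rose, and the falls numbered 1 among D-type cyclins and CDK4/6 and 0 among later cyclins and CDKs, E2F factors and transcriptional members. With an adjusted p under 0.01 the counts were 275 genes, 4 falls, 1 rise, and 0 falls in those last 3 roles. Without the dimmest 40% of genes they were 2221 of 8867 genes, 18 falls and 4 rises among 53 members, with 5 falls among later cyclins and CDKs and 4 among E2F factors. With an intensity trend they were 2438 genes, 19 falls and 7 rises, with 5 falls among later cyclins and CDKs, 4 among E2F factors and 2 among pocket proteins. With all probe sets tested 1 E2F factor and 0 transcriptional members fell. Quantile normalization again and median centring each left 1 transcriptional fall. With each of the 6 arrays omitted in turn, 461 to 546 genes changed, 5 to 7 members fell and 1 rose. In that setting 1 to 3 later cyclins and CDKs fell (1 without shGFP array c), with 0 or 1 E2F factors, 0 transcriptional members, 2 of the D-type role and 1 pocket protein. The causes of these shifts were not tested. Dim genes such as CDKN2A, CCNB3 and CCND3 are limited by signal over background.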
